A study of Mus musculus with 32 samples.

Results

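Retinal organoids that expressed a METTL3 fusion without the hormone that moves it to the nucleus were compared with wild-type organoids at day 6 of differentiation. The comparison used 4 of the 32 libraries of the series, 2 per culture, and took all genes of the table. Of its 55492 rows, 16276 reached 1 FPKM (fragments mapped to a gene, scaled by its transcript length and by the library's total) in at least 2 of the 32 libraries and were tested. The wild-type (WT) organoids came from mouse embryonic stem cells of the line Rx:GFP, named after the Rx gene (Rax) and green fluorescent protein. The fusion organoids came from the line labelled WT MTL3-GRBD OE in Mettl3 KO, in which a METTL3-GRBD fusion is overexpressed in Mettl3 knockout cells. Both cultures were treated with AGN (0.1 µM in the medium), and neither received dexamethasone (Dex). In the study's design the fusion protein is cytosolic without Dex and nuclear with it. For reference, values are also given for day 6 organoids of the knockout (labelled Mettl3 KO, with AGN) and of the fusion line with AGN and 10 µM Dex, and for WT and fusion cultures at days 0, 2 and 4, day 0 being untreated stem cells. The labels do not name the promoter that drives the fusion, nor whether each line is 1 clone. The 2 libraries of a group went through separate rounds of library preparation. Separate cultures are not mentioned, so p-values measure only the spread between these libraries, which may be technical.

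METTL3 is the catalytic subunit of the complex that writes N6-methyladenosine (m6A) on RNA, a mark that reader proteins use to change the splicing, translation or decay of transcripts. The eye starts as a field in the anterior neural plate, where Rax, Six3, Six6, Lhx2 and Pax6 act together, and is then patterned into neural retina, pigment epithelium and optic stalk. Canonical Wnt signals favour dorsal and caudal neural fates, and Wnt inhibition in the anterior plate is needed for forebrain and eye.

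Promoter sequences are shown for a factor gene that was almost absent from the fusion organoids (Vax1), a Wnt ligand gene that was higher in them than in the other 3 cultures at day 6 (Wnt8b) and a Wnt target gene that was higher in them than in WT (Sp5). They were chosen after the motif search below had been run, because each holds a match. Each window is the 250 bases before the RefSeq start on the gene's strand, 5′ to 3′, from the GRCm38.p6 build, and overlaps no exon of the GENCODE annotation. The Vax1 window ends 341 bases before the GENCODE start of the gene, and those of Wnt8b and Sp5 end at it. Vax1 lies at chr19:59170398-59170647 (minus strand), Wnt8b at chr19:44493222-44493471 (plus strand) and Sp5 at chr2:70474673-70474922 (plus strand). Capitals mark CTTTGAT, the core bound by TCF/LEF factors, which carry out the Wnt response, and TAATTA, a core bound by many homeodomain factors.
Vax1: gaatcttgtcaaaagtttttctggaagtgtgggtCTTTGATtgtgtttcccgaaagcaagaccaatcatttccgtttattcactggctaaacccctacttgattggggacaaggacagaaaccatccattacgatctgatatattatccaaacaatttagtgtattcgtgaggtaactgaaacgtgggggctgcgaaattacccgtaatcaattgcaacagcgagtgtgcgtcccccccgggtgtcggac
Wnt8b: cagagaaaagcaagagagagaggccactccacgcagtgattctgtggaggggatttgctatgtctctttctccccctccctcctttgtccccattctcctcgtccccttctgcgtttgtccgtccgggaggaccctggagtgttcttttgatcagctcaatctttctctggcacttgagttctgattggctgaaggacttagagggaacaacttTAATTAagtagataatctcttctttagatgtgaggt
Sp5: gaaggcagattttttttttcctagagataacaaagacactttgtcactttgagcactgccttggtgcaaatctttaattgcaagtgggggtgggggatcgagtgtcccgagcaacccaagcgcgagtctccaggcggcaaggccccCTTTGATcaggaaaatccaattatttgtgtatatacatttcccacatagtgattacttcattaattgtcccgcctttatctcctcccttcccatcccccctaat
Both strands were searched, and the motifs share no overlapping match here. The windows of Vax1 and Sp5 hold 1 CTTTGAT each and that of Wnt8b 1 TAATTA. Of 32851 windows of the same length before all RefSeq starts, 3.21% held CTTTGAT and 4.84% held TAATTA. Among the genes with the largest falls and rises named below, the promoter table held 7 and 3 genes. Among these only Vax1 had CTTTGAT and none had TAATTA. A match is only a run of letters, and no binding was measured.

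Mettl3 was examined first, as the targeted gene. At day 6 its level (ENSMUSG00000022160; GRCm38 chromosome 14, 52294841 to 52305128, minus strand) was 36.33 and 35.11 FPKM in the WT libraries, 45.16 and 51.86 in the fusion libraries without Dex, 37.86 and 37.32 in KO and 44.46 and 48.76 with Dex. The fusion libraries lay above WT without overlap, by 0.43 ± 0.06 on the log2(FPKM + 1) scale (SE, limma adjusted p = 5.61e-06), and at day 0 by 0.99. Both libraries labelled KO lay above both WT libraries, so the transcript level does not check the knockout, and the labels alone define it. Whether reads from the fusion construct are counted in the Mettl3 row, or in that of the glucocorticoid receptor gene Nr3c1, was not tested. Nr3c1 was low throughout at day 6, at 0.81 and 0.95 FPKM in WT and 0.51 and 0.68 without Dex. Its call (log2 change -0.24, adjusted p = 0.0356) was lost under several settings, among them rescaling of the libraries.

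At day 6, 10229 of 16276 genes (62.8%) passed the test between the fusion without Dex and WT, 4491 higher (27.6%) and 5738 lower (35.3%) at an adjusted p under 0.05. With so small a spread between duplicates, many of these changes were small. On the log2 scale 1148 genes differed by 1 or more (7.05%), 533 higher (3.27%) and 615 lower (3.78%). A change of at least 2 was reached by 98 higher and 127 lower genes, and of at least 3 by 34 and 49. The libraries of the groups did not overlap for 1147 of the 1148 genes, beside 79.9% of all genes tested. The median change of all genes was -0.05. The day 6 list counts against WT below are to be read beside the 27.6% of all genes called higher and 35.3% lower. Estimated depth was 36500000 to 43300000 fragments in these 4 libraries, with 290 to 300 bases taken off each transcript length. Over 2 kb left after this, 3 fragments correspond to 0.035 to 0.041 FPKM. The floor of a 2 kb transcript is therefore slightly higher, and levels near it could not be told from 0. In what follows, a pair of values is library 1 and 2 of a group, and 1 pair against another is WT against the fusion without Dex at day 6 unless another group or day is named. The scatter of day 6 levels shows the genes that stood farthest from the diagonal.

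**Figure D1:**
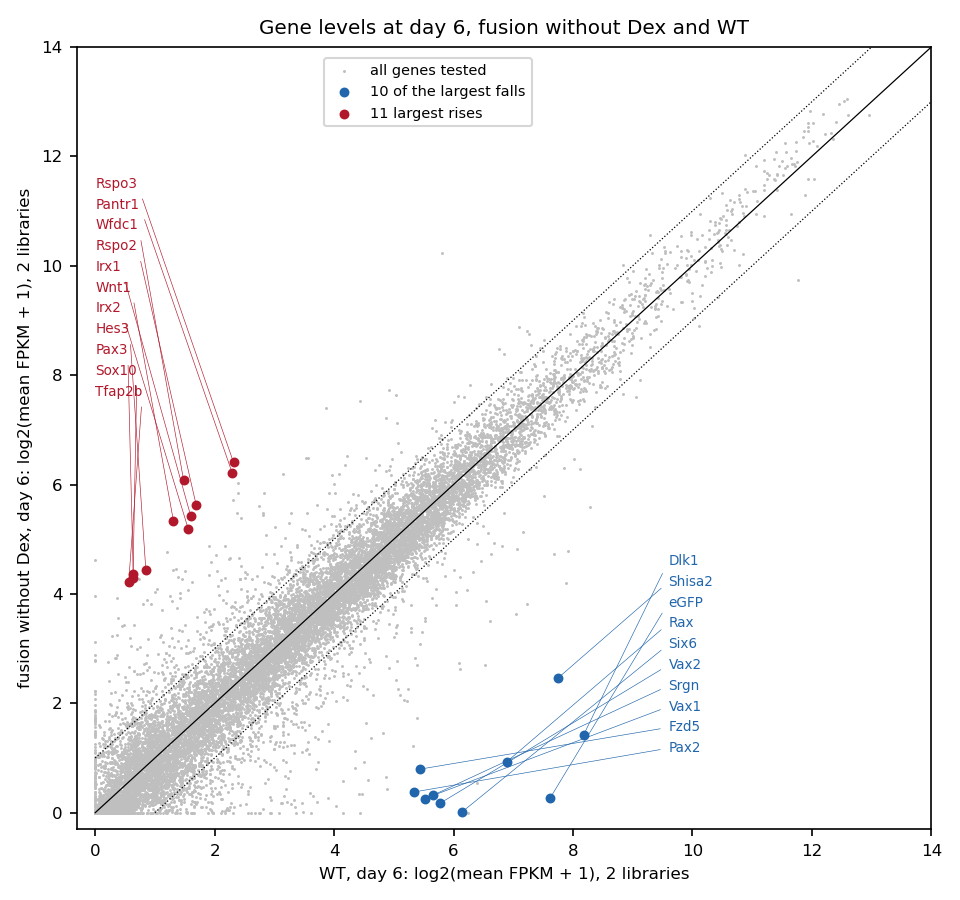
Mean level of each tested gene in WT (x axis) and in the fusion without Dex (y axis) at day 6, both as log2(FPKM + 1), 2 libraries each. The solid line marks equal levels and the dotted lines a difference of 1. Blue and red points are 10 of the largest falls and the 11 largest rises, leaving out 2 copies of the 7SL RNA. Six6 (0.01 FPKM without Dex in both libraries) and Rax lie along the bottom of the plot, and Rspo3 and Wfdc1 lie at its left, well above the diagonal.

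Eye field genes were lower in the fusion organoids. Rax, Six6 and the reporter of Rax were abundant in WT and near 0 without Dex, and Six3 and Lhx2 were 11.5-fold and 13.5-fold lower. Of 16 listed eye field and optic vesicle factors, 15 were tested, 10 were lower, 4 higher and 1 not called, and 9 fell by at least 1. The median change of the list was -1.81, against -0.05 over all genes, and -1.18 when a mean of at least 5 FPKM was required. In these bulk samples, fewer cells of a type and less RNA per cell cannot be told apart.

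Rax, the homeobox gene that starts the eye field (ENSMUSG00000024518; chromosome 18, 65928277 to 65939787, minus strand), was at 121.5 and 114.84 FPKM in WT and at 0.79 and 1.03 FPKM in the fusion libraries. Its log2 change was -5.97 ± 0.06 (SE, adjusted p = 7.38e-23). The reporter row eGFP, which reads out the Rx locus in this line, was at 200.34 and 189.57 FPKM in WT and at 0.1 and 0.3 FPKM without Dex (log2 change -7.36, adjusted p = 1.20e-16). Six6, a factor of the eye field and retinal progenitors (chromosome 12, 72939892 to 72944899, plus strand), was at 70.33 and 69.0 FPKM in WT and 0.01 FPKM in both fusion libraries, under the level that 3 fragments give on a 2 kb transcript. Six3, which holds back Wnt genes in the anterior neural plate, was at 138.2 and 125.53 FPKM in WT against 10.67 and 12.19 FPKM, a mean 11.5-fold lower. Lhx2, which the optic vesicle needs to form a cup, was at 239.75 and 228.24 FPKM against 18.0 and 16.62 FPKM, 13.5-fold lower. No fusion library of these genes reached the lowest WT library. For Rax, eGFP and Six6 this was a condition of their choice among the largest falls. Hesx1, an anterior neural plate repressor, was at 13.72 and 14.09 FPKM against 0.32 and 0.08.

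Other members of the list went the other way. Pax6, an eye field factor that is also used widely in the forebrain and hindbrain, was at 111.15 and 109.07 FPKM in WT and 156.45 and 152.45 FPKM in the fusion libraries (log2 change 0.48 ± 0.15, adjusted p = 0.0082). That call was lost with a pseudocount of 0.1. Otx2, a forebrain and midbrain factor that is later used in pigment cells and photoreceptors, was 1.60-fold higher (105.3 and 104.31 against 165.62 and 170.23 FPKM), and Mab21l2, expressed in optic cup and midbrain, was 3.73-fold higher (14.5 and 15.67 against 56.65 and 55.76 FPKM). Tbx2, a dorsal optic cup factor, was at 0.32 and 0.37 FPKM in WT and 0.46 and 0.43 FPKM without Dex and did not pass the test (adjusted p = 0.304). Set against the label of retinal organoid, the defining markers Rax, Six6, Six3 and Lhx2 were high in the WT libraries, and Rax and Six6 were near 0 in the fusion libraries.

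Vax1, Vax2, Pax2, Shisa2 and Dlk1 were also among the 12 largest falls. Vax1 and Vax2, which set ventral eye and optic stalk identity, were at 46.05 and 43.61 and at 54.32 and 52.91 FPKM in WT. Without Dex they were at 0.22 and 0.17 and at 0.03 and 0.22 FPKM. Pax2, the optic stalk factor also used at the midbrain-hindbrain boundary, was at 40.12 and 38.91 FPKM against 0.28 and 0.32 FPKM (log2 change -4.96). Shisa2, which blocks maturation of Wnt and FGF receptors, was 47.5-fold lower, at 215.15 and 210.93 against 4.67 and 4.3 FPKM. Dlk1, an imprinted gene for a Notch ligand-like membrane protein, had the largest fall among the named endogenous genes, at 294.53 and 283.95 against 1.75 and 1.63 FPKM (log2 change -6.75 ± 0.12, adjusted p = 3.30e-19). For each of these genes both WT libraries lay above both fusion libraries, which was a condition for the 12 largest falls. The libraries did not overlap for 79.9% of all genes tested.

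Genes that make, bind and degrade retinoic acid were mostly lower. Of 13 listed, 10 were tested, and 9 were lower and 1 higher, with a median of -1.0. Against the same WT libraries the median was similar in KO (-0.92) and with Dex (-0.89). Aldh1a3, the enzyme that makes retinoic acid in the ventral retina, was at 12.08 and 12.24 FPKM in WT and 0.14 and 0.15 FPKM without Dex. Aldh1a1, the dorsal retinal enzyme, was at 2.53 and 2.65 against 0.15 and 0.23 FPKM, and Cyp26a1, which degrades retinoic acid, at 11.49 and 10.83 against 0.36 and 0.21 FPKM. Crabp2, a carrier protein, was the member that rose, at 640.23 and 616.21 against 1491.44 and 1524.19 FPKM. Of 14 pigment cell genes 7 were tested, and Mitf, Dct, Pmel and Trpm1 were lower. Pmel, a melanosome protein, was at 4.22 and 5.53 FPKM in WT and 0.29 and 0.34 FPKM without Dex. Rab38, which helps sort cargo to melanosomes, was at 2.6 and 2.41 FPKM in WT and higher at 7.53 and 7.36 FPKM without Dex. Rlbp1, a retinoid carrier of the pigment epithelium, was at 0.89 and 0.98 FPKM in WT and higher at 2.01 and 1.92 FPKM. These levels were low in both cultures, and the median of the pigment list turned from -1.09 to 0.01 without the filter on low values.

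Factors of dorsal and caudal neural tissue were higher in the fusion organoids. Of 20 midbrain and hindbrain factors 19 were tested, and 13 were higher, 3 lower and 3 not called, with a median of 2.13 (3.30 with a mean of at least 5 FPKM) and 11 rises of at least 1. Wnt1, the signal of the midbrain-hindbrain boundary and dorsal midline (ENSMUSG00000022997; chromosome 15, 98789857 to 98793837, plus strand), was at 1.6 and 1.36 FPKM in WT and at 37.93 and 40.64 FPKM in the fusion libraries, a mean 26.5-fold higher (log2 change 4.02 ± 0.05, adjusted p = 7.83e-22). Irx1 and Irx2, Iroquois factors of caudal forebrain and midbrain, were 20.7-fold and 18.1-fold higher. Irx1 (chromosome 13, 71957921 to 71963723, minus strand) was at 2.25 and 1.81 FPKM against 40.89 and 43.06 FPKM, and Irx2 at means of 1.95 and 35.2 FPKM. Irx3 and Irx5, of the other Iroquois cluster, were 5.63-fold and 15.2-fold higher. Dmbx1, a midbrain factor, was at 0.3 and 0.28 FPKM against 13.98 and 14.22 FPKM, Barhl2, a diencephalic factor, at 1.5 and 1.63 against 20.67 and 21.4 FPKM, and Lmx1a, a roof plate and midbrain factor, at 0.21 and 0.22 against 8.89 and 7.98 FPKM. Both fusion libraries lay above both WT libraries for each of these genes. For Wnt1, Irx1 and Irx2 this was a condition of their choice among the largest rises.

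The rise did not extend to all caudal markers. En1, the Engrailed gene of the midbrain-hindbrain boundary, was at 0.92 and 0.97 FPKM in WT and at 0.79 and 1.2 FPKM without Dex and was not called. En2 was lower, at 1.86 and 2.13 against 0.82 and 0.77 FPKM. Of 16 Hox genes, the markers of hindbrain and spinal cord, 2 passed the filter on low values. Hoxb2, the one called higher, was at 0.0 in both WT libraries and 0.22 and 0.18 FPKM without Dex.

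Neural crest and neural border genes were higher as a list. All 14 were tested, and 13 were higher, 0 lower and 1 not called, with a median of 2.18. Pax3, a factor of the dorsal neural tube (ENSMUSG00000004872; chromosome 1, 78101267 to 78197134, minus strand), was at 0.61 and 0.5 FPKM in WT and 19.34 and 19.58 FPKM without Dex (log2 change 3.72 ± 0.06, adjusted p = 4.70e-20). Sox10, which marks migrating neural crest, was at 0.51 and 0.59 against 18.2 and 18.95 FPKM, and Tfap2b at 0.52 and 0.43 against 17.63 and 17.57 FPKM. Zic1 was already abundant in WT, at 34.02 and 30.18 FPKM, and reached 132.5 and 144.82 FPKM. In WT, Pax3, Sox10 and Tfap2b were under 1 FPKM, so their rises start from low levels.

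Early neuron genes were higher. Of 16 listed, 15 were tested and these 15 were higher, 12 of them by at least 1, with a median of 1.48. Tubb3, the neuronal tubulin, was at 29.46 and 28.91 FPKM in WT and 211.11 and 212.97 FPKM without Dex, Gap43, a growth cone protein, at 4.49 and 3.9 against 44.35 and 43.11 FPKM, and Neurog1, a proneural factor, at 0.26 and 0.31 against 8.0 and 9.02 FPKM. Markers of neural progenitors as a class were split: of 13 genes 7 were higher, 3 lower and 3 not called, with a median of 0.30. Sox2 was at 196.75 and 196.26 FPKM in WT and 171.37 and 171.68 without Dex, and Sox1 at 47.21 and 45.69 against 41.66 and 43.33 FPKM, which was not called (adjusted p = 0.0687). Fabp7, a radial glia lipid carrier, was higher, at 13.58 and 13.55 against 170.14 and 167.63 FPKM. Of 12 genes of later retinal neurons 7 were tested, 5 higher, 1 lower and 1 not called, with a median of 0.76. Prox1 was the lower one, at means of 3.8 FPKM in WT and 1.54 FPKM without Dex. Nrl and Rcvrn were at 0 in both fusion libraries. The summed level of this list was 6.71 to 6.99 FPKM in WT, 24.5 to 27.5 without Dex and 29.7 to 31.3 in KO. Whether the rise came from retinal neurons was not tested. Hes3, an early neural repressor that was not in the list, was at 0.54 and 1.06 FPKM in WT and 20.79 and 20.44 FPKM without Dex. The plot of changes by list shows neural crest, midbrain and neuron genes at one end and eye field and endoderm genes at the other.

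**Figure D2:**
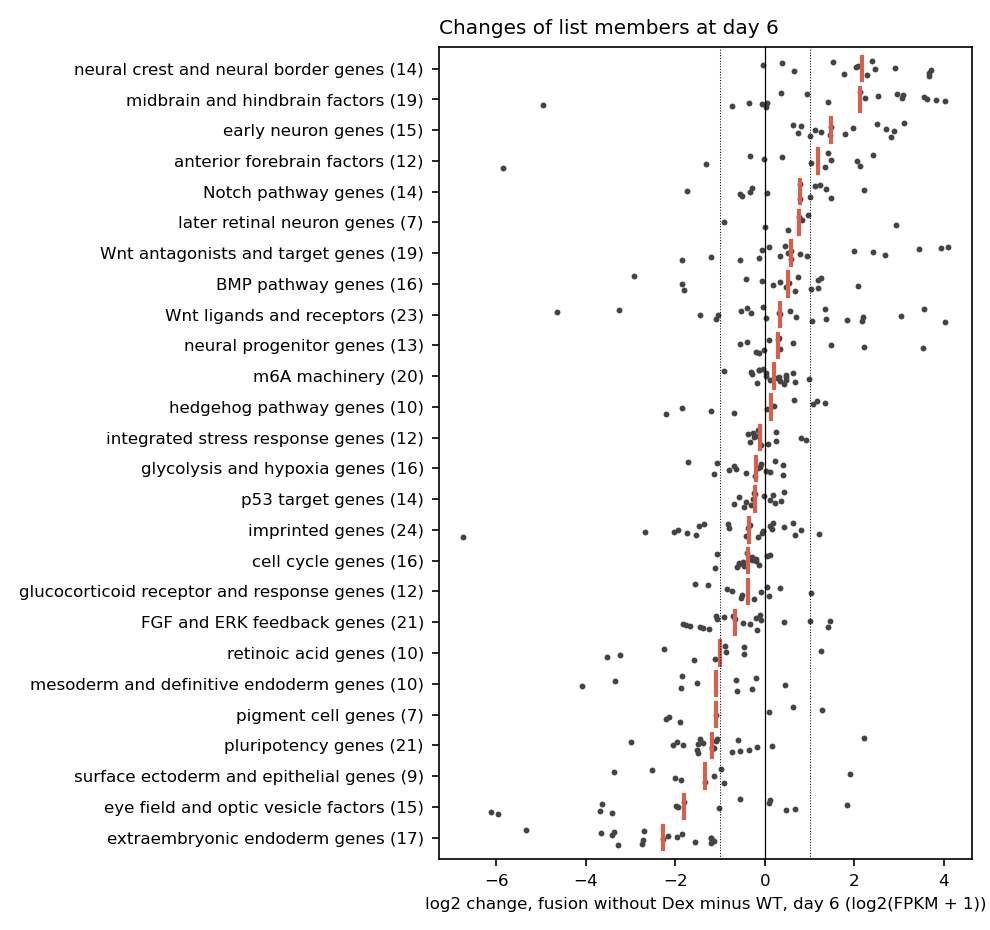
Change of each tested member of 26 gene lists at day 6, fusion without Dex minus WT on the log2(FPKM + 1) scale (points), with the list median (red bars) and the number of tested members in brackets. Dotted lines mark changes of 1. Neural crest (median 2.18) and midbrain and hindbrain genes (2.13) lie at the top, and eye field (-1.81) and extraembryonic endoderm genes (-2.28) at the bottom, while single members such as Pax2 (-4.96) lie far from the median of their list.

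Anterior forebrain factors were split. Of 16 listed 12 were tested, and 8 were higher, 3 lower and 1 not called, with a median of 1.19 that was 0.24 without the filter on low values. Sp5, shown above as a Wnt target gene, was among the higher ones and is counted in the Wnt target list as well. Fezf1, a factor of forebrain and olfactory development, was among the lower ones, at 45.82 and 45.75 FPKM in WT and 18.06 and 17.72 FPKM without Dex. Emx2, a factor of the dorsal telencephalon and diencephalon, was at 13.62 and 18.29 FPKM in WT and 72.44 and 72.4 FPKM without Dex. Fezf2, a factor of forebrain patterning, was higher, at 39.64 and 40.33 against 82.09 and 83.27 FPKM, and Lhx5 at 12.69 and 13.61 against 36.43 and 37.21 FPKM. Otx1, a forebrain and midbrain factor counted in the pluripotency list for its early expression, was higher, at 8.83 and 8.48 against 43.58 and 43.54 FPKM. 

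Wnt ligand and receptor genes changed in both directions. Among 23 ligand and receptor genes, 12 were higher, 8 lower and 3 not called, beside 27.6% and 35.3% of all genes higher and lower. Their median of 0.34 turned to -0.03 when a mean of at least 5 FPKM was required. Among ligands, Wnt8b (ENSMUSG00000036961; chromosome 19, 44493472 to 44514273, plus strand), the gene whose promoter is shown above, was at 7.96 and 7.7 FPKM in WT and at 70.08 and 73.86 FPKM without Dex, 9.19-fold higher. Wnt7b was at 17.4 and 16.75 against 81.6 and 81.31 FPKM, and Wnt3 at 0.21 and 0.14 against 4.41 and 4.22 FPKM. Among receptors, Fzd10 was at 1.44 and 1.14 FPKM in WT and 26.04 and 26.23 FPKM without Dex, whereas Fzd5, the Frizzled of the eye field, was at 41.92 and 42.5 against 0.69 and 0.78 FPKM (log2 change -4.64). Fzd8, another Frizzled receptor gene, was lower, at 23.81 and 23.56 against 1.69 and 1.48 FPKM. The Wnt co-receptor Lrp6 was at 15.56 and 15.25 FPKM against 14.77 and 15.41 FPKM and was not called (adjusted p = 0.663).

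R-spondins are secreted proteins that amplify Wnt signals by sparing Frizzled receptors from degradation, and 3 of their genes were higher. Rspo3 (ENSMUSG00000019880; chromosome 10, 29452416 to 29535867, minus strand) was at 3.99 and 3.97 FPKM in WT and at 84.51 and 82.96 FPKM without Dex (log2 change 4.09 ± 0.05, adjusted p = 7.92e-22). Rspo2 was at 2.25 and 2.2 against 48.54 and 47.9 FPKM, 21.7-fold higher, and Rspo1 at 4.26 and 4.28 against 56.79 and 56.01 FPKM. Several genes known as Wnt targets were higher too. Axin2, a feedback inhibitor of the pathway, was at 6.06 and 5.92 FPKM against 43.46 and 43.95 FPKM, 7.30-fold higher, and Sp5, the factor gene shown above, at 2.85 and 2.66 against 19.0 and 19.48 FPKM, 6.98-fold higher. Nkd1, another feedback inhibitor, was at 15.05 and 14.92 against 61.66 and 64.42 FPKM. Lgr5, often used as a Wnt target in other tissues, was at 1.47 and 1.43 against 1.37 and 1.34 FPKM and was not called (adjusted p = 0.265). Over the 19 tested antagonists and targets 12 were higher, 4 lower and 3 not called, with a median of 0.58. Dkk3 and Sfrp5 were among the antagonists that fell.

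FGF genes went mostly down. Of 21 ligands, receptors and feedback genes, 14 were lower, 4 higher and 3 not called, with a median of -0.66. Against the same WT libraries the median was similar in KO (-0.60) and with Dex (-0.56). Fgf15 was at 6.93 and 6.95 FPKM in WT and 1.3 and 1.21 FPKM without Dex, and Fgf9 at 2.88 and 2.95 against 0.13 and 0.33 FPKM. Spry2 and Spry4, feedback inhibitors of FGF signalling, had log2 changes of -1.06 and -0.66, and Etv5, a factor induced by it, of -1.09. Fgf8, the signal of the midbrain-hindbrain boundary and of the anterior neural ridge, was 3.03-fold higher, at 5.09 and 4.53 FPKM in WT and 14.21 and 14.91 FPKM without Dex. Among hedgehog genes, Ihh was lower, at 4.8 and 4.94 against 0.24 and 0.3 FPKM and the target Gli1 at 3.65 and 3.73 against 0.31 and 0.28 FPKM. Gli3, which mostly represses hedgehog targets, was higher, at 17.01 and 17.12 against 37.29 and 36.65 FPKM. Of the 10 tested hedgehog genes 5 were higher and 4 lower, with a median of 0.13 that turned to -0.12 without the filter.

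BMP and Notch genes were mixed. Of 16 tested BMP pathway genes 9 were higher, 4 lower and 3 not called. Bmp4, a dorsal optic cup signal, was at 15.77 and 13.32 FPKM in WT and 2.24 and 4.99 FPKM without Dex, the latter a wide spread. The BMP response genes Id1 and Id3 were higher, Id3 at 156.12 and 155.59 against 365.57 and 380.46 FPKM. The antagonist Nog was higher, at 3.04 and 3.29 against 17.03 and 16.33 FPKM while Grem1 was lower, at 7.66 and 7.65 against 0.1 and 0.17 FPKM. Of 14 tested Notch genes 8 were higher, 5 lower and 1 not called, beside 27.6% and 35.3% of all genes higher and lower. The Notch effectors Hes5 and Hes1 changed in opposite directions: Hes5 was higher, at 14.41 and 14.65 against 66.95 and 74.78 FPKM, and Hes1 was lower, at 190.39 and 173.81 against 54.77 and 53.79 FPKM.

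Pluripotency genes were lower at day 6, when both cultures still held some of their transcripts. Of 21 genes, 18 were lower, 1 higher (Otx1) and 2 not called, with a median of -1.19. This shift was not particular to the fusion without Dex: against the same WT libraries the median was -1.15 in KO and -1.24 with Dex. Pou5f1, the core stem cell factor, was at 37.64 and 38.2 FPKM in WT and 13.56 and 12.08 FPKM without Dex. Utf1, a chromatin factor of stem cells, was at 38.37 and 35.18 against 3.57 and 4.03 FPKM, and Dppa5a at 148.54 and 137.12 against 31.31 and 36.57 FPKM. The summed level of the list was 487 to 501 FPKM in WT and 214 to 221 FPKM without Dex at day 6, against 5431 to 5551 and 5390 to 5424 FPKM at day 0. At day 0 Pou5f1 itself was higher in the fusion cells, at 1049.35 and 1078.71 FPKM, than in WT at 867.66 and 900.34 FPKM.

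Genes of extraembryonic endoderm, a cell type that can arise from embryonic stem cells, were lower. All 17 listed genes were lower at day 6 by at least 1, with a median of -2.28. The shift was not particular to the fusion without Dex: against the same WT libraries the median was -2.24 in KO and -1.96 with Dex. Gata4, a factor of primitive endoderm, was at 9.79 and 10.17 FPKM in WT and 0.15 and 0.1 FPKM without Dex, and Ttr, a carrier protein of visceral endoderm, at 3.79 and 3.78 against 0.03 and 0.12 FPKM. Afp was at 2.76 and 3.05 FPKM in WT and listed at 0 in both fusion libraries. The summed level of the list was 1862 to 1899 FPKM in WT and 575 to 583 FPKM without Dex. Its largest part was Apoe, at means of 1106 and 477 FPKM, so the sum mainly follows that gene. In WT stem cells at day 0 the sum was 1495 to 2023 FPKM. Srgn, counted in this list, was among the 12 largest falls, at 50.2 and 48.16 against 0.31 and 0.18 FPKM, and the basement membrane genes Lama1, Lamb1, Col4a1 and Sparc fell with it. All 17 were also lower at days 2 and 4, beside 16.2% and 21.5% of all genes tested. At day 0, 13 were lower, beside 38.5% of all genes. Their part in the other day 6 differences was not tested. Epithelial genes moved the same way, with 8 of 9 tested lower, among them Epcam (15.59 and 15.0 against 2.64 and 3.58 FPKM) and Cldn6 (27.7 and 26.74 against 1.6 and 1.9 FPKM). Tfap2c was the one that rose, at 3.14 and 3.3 against 14.28 and 15.29 FPKM. Of 17 mesoderm and definitive endoderm genes 10 were tested, and 7 were lower, 1 higher and 2 not called, with a median of -1.08. That median was also below 0 against WT in KO (-0.87) and with Dex (-0.65). Kdr, a vascular receptor gene, was at 11.67 and 11.42 FPKM in WT and 0.26 and 0.21 FPKM without Dex, and the endoderm factor Sox17 at 20.92 and 20.05 against 0.16 and 0.38 FPKM. The summed level of that list was 61.2 to 62.6 FPKM in WT and 9.34 to 9.69 FPKM without Dex, and the part of these cells in the day 6 differences was not tested.

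Several lists held smaller shifts. Among 20 genes of the m6A machinery, 11 were higher, 6 lower and 3 not called, none by 1 or more, with a median of 0.20. The writer subunit genes Wtap and Rbm15 were higher, Wtap at 63.88 and 63.84 FPKM in WT and 104.04 and 100.65 FPKM without Dex, and Rbm15 at 5.7 and 6.0 against 12.38 and 12.72 FPKM. Cell cycle genes were lower in 14 of 16 cases, with a median of -0.37, Ccnd1 at 34.55 and 35.27 against 15.07 and 16.16 FPKM. Among 24 imprinted genes, 13 were lower, 6 higher and 5 not called, beside 35.3% and 27.6% of all genes lower and higher. Mest was lower, at 3438.83 and 3509.45 against 834.48 and 863.83 FPKM and Peg10 at 91.11 and 94.44 against 13.62 and 13.57 FPKM, while Igf2 was higher, at 15.07 and 15.77 against 36.2 and 37.87 FPKM. Meg3, on the same imprinted cluster as Dlk1, was at 665.22 and 665.78 against 586.36 and 612.16 FPKM, a small fall beside that of Dlk1. Of 12 genes listed for the glucocorticoid receptor and its response, 7 were lower, 2 higher and 3 not called. The lower ones include Nr3c1, whose call was lost under several settings. The response gene Mt1, a metallothionein, was at 319.28 and 319.8 against 135.54 and 130.58 FPKM. Lists of p53 targets, the integrated stress response and glycolysis had medians of -0.22, -0.11 and -0.19.

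The 7SL RNA copies Rn7s1 and Rn7s2 were among the 12 largest rises and the 12 largest falls. They are near-identical copies whose reads cannot be assigned with certainty, and their libraries were erratic: Rn7s1 was at 0.0 and 41.18 FPKM in WT and 168.97 and 197.4 FPKM without Dex, and Rn7s2 at 107.99 and 41.18 against 0.0 and 0.0. Rn7s2 lost its call when any of the 4 libraries was left out and Rn7s1 when any but library 2 of WT was. Without library 1 of WT, the log2 change of Rn7s1 was 2.12 in place of 4.82 (adjusted p = 0.458). No source used here says whether counting used strand. Reads from both strands may therefore be mixed for any gene with an antisense neighbour, Six3 and Fzd10 being examples. Pantr1, a noncoding RNA beside the neural gene Pou3f3, was at 3.67 and 4.13 FPKM in WT and 73.14 and 73.53 FPKM without Dex.

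Wfdc1, the rise with the largest log2 change apart from Rn7s1 (4.61 ± 0.07), encodes a small secreted protein and lies on chromosome 8. It was at 1.57 and 2.0 FPKM in WT and 68.05 and 65.15 FPKM without Dex. Chromosome 8 stood apart as a whole. Its 858 tested genes had a median change of 0.30 at day 6, while the medians of the other chromosomes lay between -0.10 and -0.04. Of its genes 517 were higher and 112 lower. On earlier days the chromosome 8 median was -0.02 (day 0), 0.19 (day 2) and 0.31 (day 4). For the fusion without Dex it was -0.06 against KO and -0.04 against Dex at day 6, while KO and Dex each had a chromosome 8 median of 0.35 against WT. Irx3, Irx5, Nkd1, Tubb3, Col4a1, Mt1 and Sox1 are also on chromosome 8, and the part of the chromosome in their changes was not tested. With this chromosome's genes left out, 9590 genes passed the test at day 6, 3971 higher and 5619 lower.

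The earlier days show when these differences arose. Between the fusion without Dex and WT, 10149 genes were called on day 0 (62.4%), 7487 on day 2 (46.0%) and 8440 on day 4 (51.9%). The calls that were higher made up 23.8%, 29.8% and 30.4% of genes tested, and those that were lower 38.5%, 16.2% and 21.5%. A change of at least 1 was reached by 957 (5.88%), 226 (1.39%) and 401 genes (2.46%), against 1148 at day 6. The share of calls that were higher depended on scaling at these days. As deposited it was 38.2% (day 0), 64.7% (day 2) and 58.6% (day 4), and it was 50.7%, 50.1% and 49.9% after rescaling by median-of-ratios factors, which moved the median of all genes by at most 0.07 at these days. At day 6 it was 43.9% and 48.9%. Of the 533 genes at least 1 higher at day 6, 82 (15.4%) were at least 1 higher at day 4, which is 42.1% of the day 4 list, and 34 (6.4%) at day 0. Over all genes tested 1.20% and 1.30% were at least 1 higher at those days, and 0.676% were at day 2, which shared 15 genes with the day 6 list. Of the 615 that were lower, 127 (20.7%) were lower at day 4, which is 61.7% of the day 4 list, and 59 (9.6%) at day 0, beside 1.27% and 4.58% of all genes tested. Day 2 shared 61 of them (9.9%), where 0.713% of all genes were at least 1 lower. For 9734 genes (59.8%) the lines differed in their change between days 0 and 6, with 5663 higher (34.8%) and 4071 lower (25.0%) in the fusion (interaction contrast in limma). A difference of at least 1 was seen for 1621 (9.96%), 978 higher (6.01%) and 643 lower (3.95%). The share of these that were higher was 58.2% as deposited and 49.4% after rescaling.

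Several eye field genes were expressed in both lines at day 4. At day 4 Six3 was at 73.79 and 74.3 FPKM in WT and 34.55 and 33.07 FPKM without Dex. It then rose to 138.2 and 125.53 FPKM in WT and was lower at 10.67 and 12.19 FPKM without Dex at day 6. Rax was at 30.7 and 31.54 FPKM in WT and 6.51 and 6.43 FPKM without Dex at day 4, and Hesx1 at 153.09 and 157.72 against 76.11 and 72.86 FPKM. Lhx2 was close between the lines at day 4, at 14.43 and 12.97 against 10.65 and 10.79 FPKM (adjusted p = 0.0534), and differed 13.5-fold at day 6. Six6 and Dlk1 were low at day 4 in both lines, and their WT rise between days 4 and 6 had no counterpart without Dex: Dlk1 was at 4.27 and 4.17 FPKM at day 4 and 1.75 and 1.63 FPKM at day 6. At day 4 the eye field list had 5 genes higher, 4 lower and 6 not called, and a median of 0.03. Over all genes tested 30.4% were higher and 21.5% lower at that day.

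Irx genes and Wnt1 already differed at day 4. Irx3 was at 4.4 and 4.91 FPKM in WT and 59.5 and 57.55 FPKM without Dex at day 4, and at 24.27 and 24.41 FPKM in the fusion libraries at day 6, lower than at day 4. Irx1 was at 1.74 and 1.58 against 23.07 and 23.87 FPKM, Wnt1 at 0.44 and 0.51 against 6.09 and 6.44 FPKM, and Sp5 at 0.16 and 0.18 against 7.58 and 6.46 FPKM. En1 was higher at day 4 by 2.39 on the log2 scale and no longer at day 6. Rspo3 did not differ past the threshold at day 4 (adjusted p = 0.523). It was at 0.32 and 0.28 against 0.34 and 0.19 FPKM at day 4, and reached 3.99 and 3.97 against 84.51 and 82.96 FPKM at day 6. At day 2 Irx3 differed, at 0.59 and 0.63 FPKM in WT and 2.78 and 2.98 FPKM without Dex, while Wnt1 was at or near 0 in both lines. The time courses show these different onsets.

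**Figure D3:**
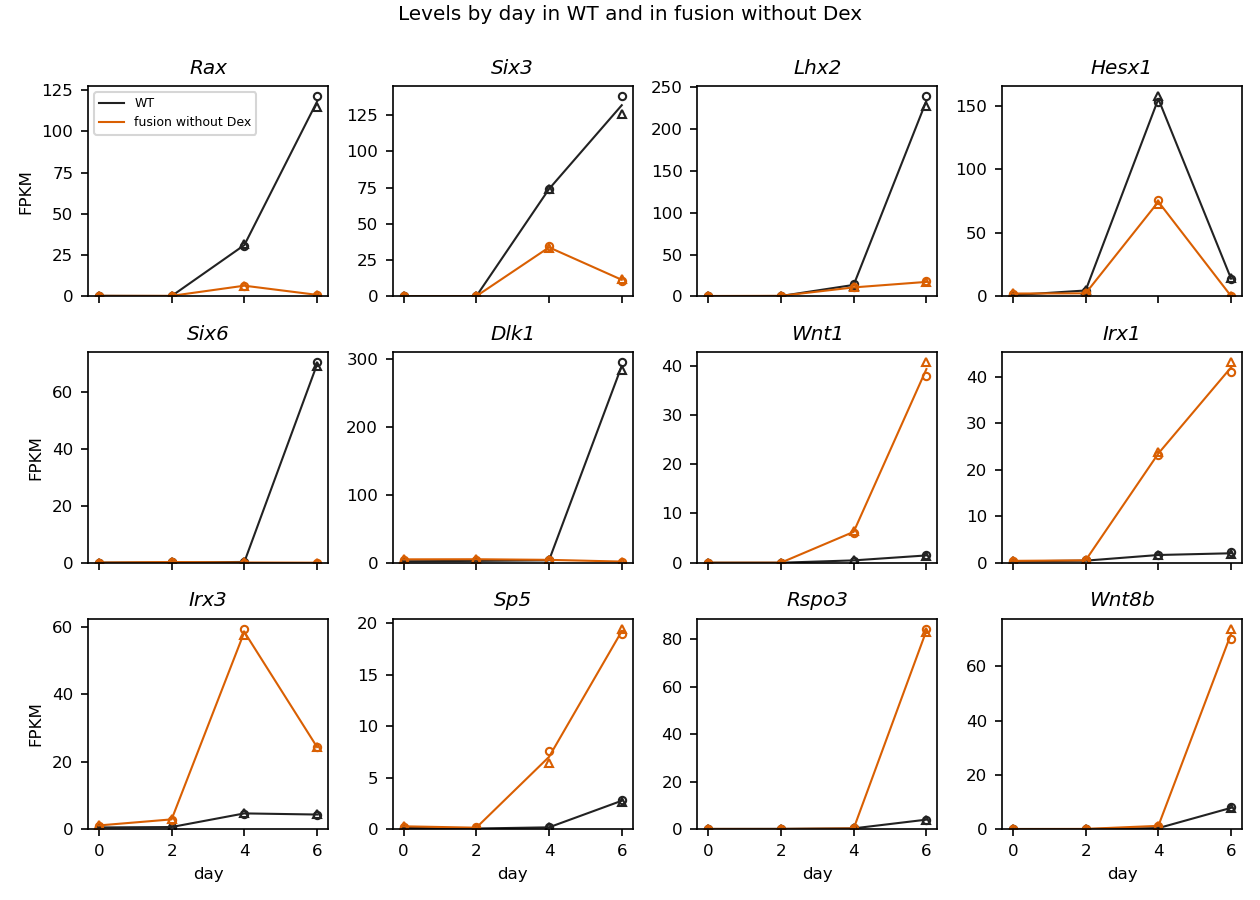
FPKM of 12 genes at days 0, 2, 4 and 6 in WT (black) and in the fusion without Dex (orange). Circles and triangles are libraries 1 and 2, and lines join their means. Six3 and Hesx1 rose in both lines by day 4 (Six3 to 73.79 and 34.55 FPKM in library 1), Irx1, Irx3 and Wnt1 were higher without Dex at day 4, and Rspo3 at day 6 but not at day 4.

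**Figure D4:**
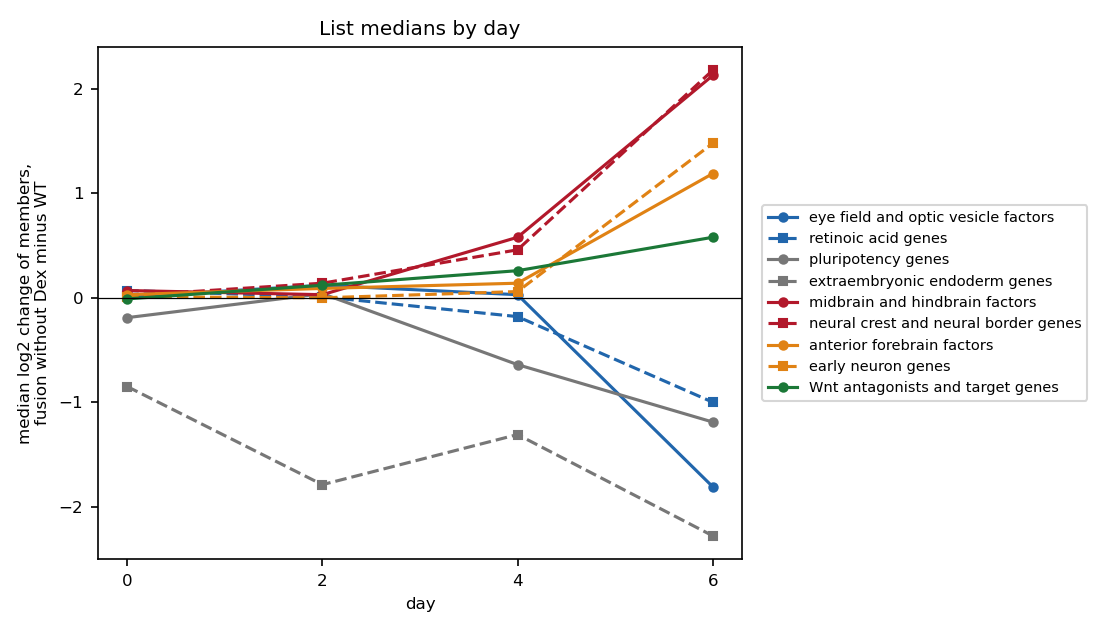
Median log2 change of the tested members of 9 gene lists, fusion without Dex minus WT, at each day. The eye field median went from 0.03 at day 4 to -1.81 at day 6 and the midbrain and hindbrain median from 0.58 to 2.13, while the extraembryonic endoderm median was below 0 at all 4 days (-0.85 at day 0).

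The knockout and the Dex-treated fusion organoids at day 6 were compared with the same WT libraries, which the comparisons therefore share. KO against WT gave 10591 calls (65.1%), 5029 higher (30.9%) and 5562 lower (34.2%), and 1631 of at least 1 (10.0%), 866 higher (5.32%) and 765 lower (4.70%). Dex against WT gave 9987 calls (61.4%), 4753 higher (29.2%) and 5234 lower (32.2%), and 961 of at least 1 (5.90%), 508 higher (3.12%) and 453 lower (2.78%). In the direct contrasts, the fusion without Dex differed from KO in 7983 genes (49.0%), with 21.1% of genes tested higher and 27.9% lower. It differed by at least 1 in 331 (2.03%), 154 higher (0.946%) and 177 lower (1.09%). It differed from the Dex-treated fusion in 6956 genes (42.7%), with 19.0% higher and 23.8% lower, and by at least 1 in 247 (1.52%), 83 higher (0.510%) and 164 lower (1.01%).

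Six6 and Dlk1 were low in KO as well. Six6 was at 0.02 FPKM in both KO libraries and Dlk1 at 1.77 and 1.62 FPKM, and neither differed from the fusion without Dex past the threshold (adjusted p = 0.875 and 1.0). Rax was at 0.28 and 0.32 FPKM in KO, less than without Dex (log2 change 0.55, adjusted p = 5.47e-07), and Six3 at 0.69 and 0.58 FPKM, well under its 10.67 and 12.19 FPKM without Dex (2.92, adjusted p = 1.54e-16). Lhx2 was also above KO, where it was at 4.59 and 5.35 FPKM. With Dex, Rax was at 53.89 and 55.52 FPKM, Lhx2 at 153.91 and 155.23 and eGFP at 132.12 and 139.46 FPKM, each higher than without Dex in both libraries and lower than in WT. Six6 reached only 6.66 and 6.13 FPKM with Dex, and Vax1 0.46 and 0.78 FPKM, which did not differ from no Dex past the threshold (-0.43, adjusted p = 0.158). Dlk1 was also low with Dex, at 3.59 and 3.36 FPKM against 294.53 and 283.95 in WT. Hesx1 was at 0.47 and 0.26 FPKM with Dex and 0.13 and 0.24 in KO, against 13.72 and 14.09 in WT. Pmel and Trpm1 were higher with Dex than in WT, Pmel at 34.74 and 31.46 FPKM and Trpm1 at 45.81 and 47.6 against 2.56 and 2.25 FPKM in WT.

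Irx1, Fzd10 and Pax3 lay between WT and KO. Irx1 was at 149.01 and 148.48 FPKM in KO, 40.89 and 43.06 without Dex and 11.16 and 11.98 with Dex (log2 change against KO -1.80, adjusted p = 1.11e-10). Fzd10, at 128.92 and 129.5 FPKM in KO against 26.04 and 26.23 without Dex, had the largest fall from KO among the genes named (-2.26), followed by Ahdc1, Irx5 and Irx3. Ahdc1, which encodes a protein with an AT-hook DNA-binding motif, did not differ from WT past the threshold (11.38 and 12.47 against 12.01 and 13.45 FPKM, adjusted p = 0.255) and was at 60.58 and 60.35 FPKM in KO. Pax3 was at 32.96 and 32.83 FPKM in KO, 19.34 and 19.58 without Dex and 3.82 and 3.79 with Dex.

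Wnt8b, Rspo3 and Fezf2 were higher without Dex than in both WT and KO. Wnt8b was at 6.13 and 5.37 FPKM in KO and 47.13 and 44.0 with Dex, both under its 70.08 and 73.86 FPKM without Dex (log2 change against KO 3.44, adjusted p = 1.09e-17). Rspo3 was at 9.32 and 9.44 FPKM in KO and 35.58 and 34.48 with Dex, against 84.51 and 82.96 FPKM without. Fezf2 was at 8.1 and 7.31 FPKM in KO, and Fezf1, lower than WT without Dex, was at 0.76 and 0.97 FPKM in KO. Of 12 anterior forebrain factors, 7 were higher and 1 lower without Dex than in KO, with a median of 1.27, and 2 were higher and 7 lower than with Dex, with a median of -0.69. Of the 19 tested midbrain and hindbrain factors, 4 were higher and 9 lower against KO, with a median of -0.21. Against Dex 16 were higher and 2 lower, with a median of 1.15. Both sets of counts stand beside 21.1% of all genes tested higher and 27.9% lower against KO. Against Dex those shares were 19.0% and 23.8%. The day 6 levels in the 4 cultures show these orders.

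**Figure D5:**
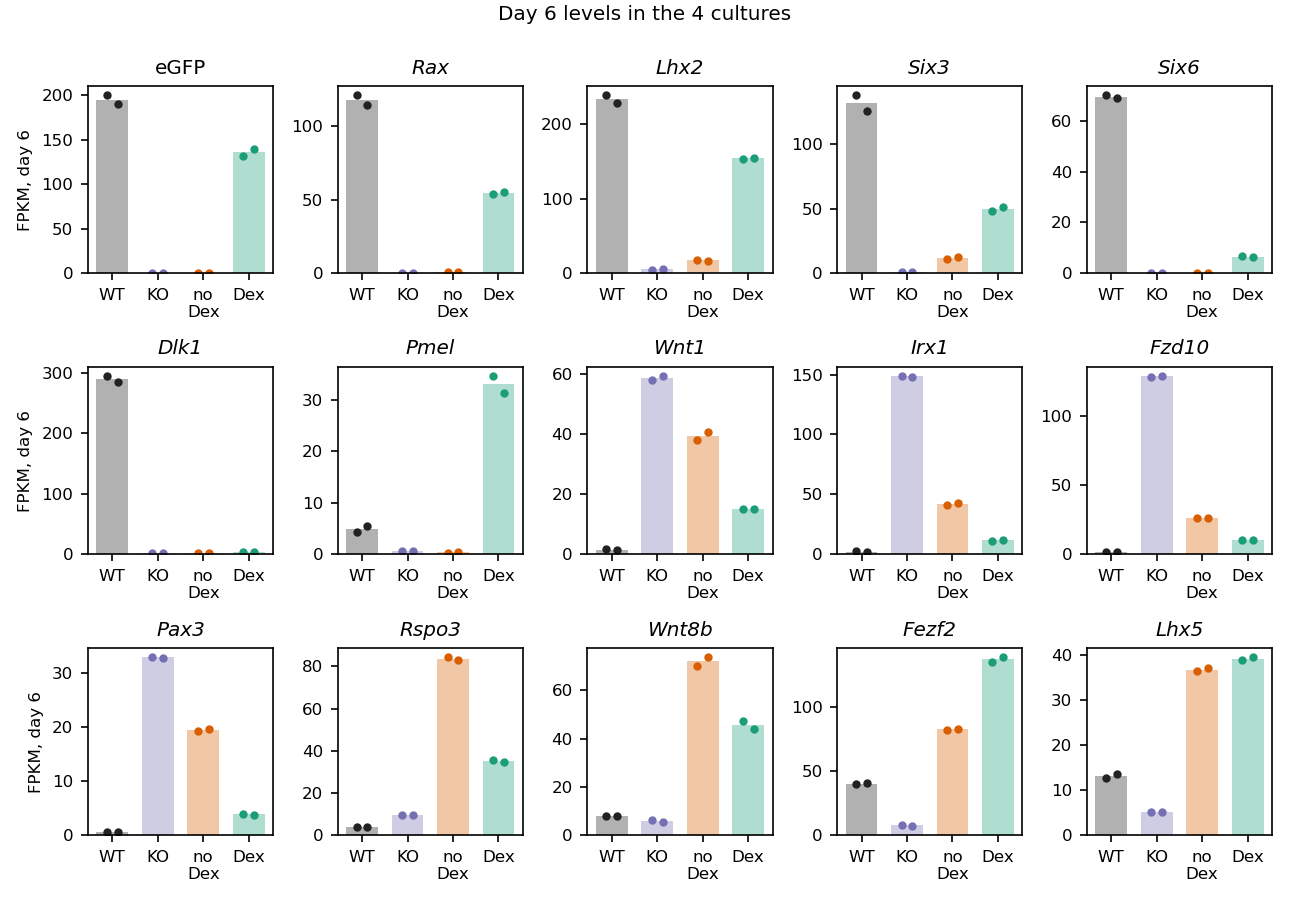
FPKM at day 6 of 15 genes in WT, KO, the fusion without Dex and the fusion with Dex. Bars are means of 2 libraries and points the libraries. Rax and eGFP are near 0 in KO and without Dex (0.79 and 1.03 FPKM for Rax without Dex), Irx1 and Fzd10 are highest in KO, and Rspo3 and Wnt8b are highest without Dex.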

How the data were processed

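Polyadenylated RNA of mouse stem cells and organoids was sequenced in 32 libraries, 2 for each of 4 cultures at days 0, 2, 4 and 6. The values are FPKM per gene as deposited by the authors, at 2 decimals. Per the submitters' processing notes STAR, Cuffdiff and mm10 were used, with no versions or roles; the tool that made the FPKM and the strand setting are not given in the sources used here. Of 55492 rows 99.5% matched GENCODE M21. limma 3.58.1 (R 4.3.3, trend) was fitted to log2(FPKM + 1) of all 32 libraries as 16 group means with 16 residual degrees of freedom, over 16276 genes with at least 1 FPKM in at least 2 libraries. A call is a Benjamini-Hochberg adjusted p under 0.05 over all genes, two-sided, and fold changes on this scale understate the change of low genes. Depth was estimated from the steps of low FPKM values, of which 89.4 to 92.5% lay within 0.2 fragments of a whole number, beside 40% for values without steps. It was 28200000 to 54300000 fragments, and floors cover counting error only.

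Named genes were Mettl3, Nr3c1, eGFP, members of the lists, and the 12 largest rises and 12 largest falls between non-overlapping groups, leaving out predicted, clone, RIKEN and pseudogene names; 4 each way were taken in the contrasts with KO and Dex. Some genes that meet this rule or belong to the lists are counted but not reported here by name. The comparison and the lists were chosen with earlier results of these data known. Figures were drawn with matplotlib 3.10.9, and alternatives are listed in the closing section.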

Additional observations from a re-analysis of the deposited data

Results flagged for a closer look

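The difference between the fusion without Dex and WT was not the same at days 6 and 0. By the interaction contrast in limma, 9734 of 16276 genes (59.8%) differed in this way, among them the genes named here. These genes were chosen for their large day 6 changes, which the contrast contains, so their passing is not separate support. The day 6 change minus the day 0 change, on the log2(FPKM + 1) scale, was -7.22 for eGFP, -7.67 for Dlk1, -6.13 for Six6, -5.94 for Rax and -5.55 for Vax2. For the other large falls it was -5.35 for Vax1, -4.94 for Pax2, -4.37 for Shisa2, -3.67 for Fzd5 and -3.39 for Srgn. Among the rises it was 4.53 for Wfdc1, 4.08 for Rspo3, 4.02 for Wnt1, 3.95 for Rspo2, 3.91 for Pantr1 and 3.72 for Irx1. For the remaining rises it was 3.70 for Pax3, 3.64 for Tfap2b, 3.56 for Irx2, 3.49 for Sox10 and 3.43 for Hes3. The stem cells at day 0 were untreated, so day and AGN treatment cannot be told apart in this contrast.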

How the results depend on the processing

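The duplicates of a group limit precision, and low levels limit the lists of pigment, Hox and later retinal genes. With a change of at least 1 also required, called genes numbered 1148 at day 6, 401 (day 4), 226 (day 2) and 957 (day 0). They were 1621 for day 6 minus day 0, 331 against KO and 247 against Dex. With a mean of at least 5 FPKM, where fewer genes are tested, the count for day 6 minus day 0 was 6372. Leaving out 1 library at a time gave 9185 to 9322 genes at day 6, 7223 to 7294 (day 4), 6190 to 6362 (day 2) and 9289 to 9699 (day 0). It gave 9035 to 9447 for day 6 minus day 0, 6822 to 7002 against KO and 5742 to 5913 against Dex, with a lone library assumed to vary like the other groups. Leaving out chromosome 8 genes, an alternative chosen after seeing the data, gave 9590 genes at day 6.

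The replicate numbers share only a number: the differences between libraries 1 and 2 correlated at 0.01 between the fusion and WT at day 6, and at -0.088 to 0.125 over 120 pairs of groups. With the replicate block the counts were 10212 at day 6, 8431 (day 4), 7467 (day 2), 10143 (day 0), 9720 for day 6 minus day 0, 7966 against KO and 6960 against Dex.

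Of 1220 values of 115 named genes under the alternatives, 1199 had the same sign and the same call as reported. The sign turned for 2 genes that had not been called. En1 was -0.12 to 0.18 with either fusion library left out. Lrp6 was 0.02 after rescaling and 0.00 and -0.06 without library 1 and 2 of the fusion. Calls were lost for Nr3c1, Pax6, Rn7s1 and Rn7s2 under some settings, and Sox1 was called with the compared groups alone (-0.13, adjusted p = 0.0454). List medians moved more: of 208 values for 26 lists, 142 stayed within the spread between libraries, 63 moved by more and 3 changed sign. Of the 26 medians, 17 moved with a pseudocount of 0.1, 18 with a mean of at least 5 FPKM, 11 after rescaling and 9 without the filter. With a mean of at least 5 FPKM the medians were -1.18 for eye field factors, 3.30 for midbrain and hindbrain factors and -0.41 for mesoderm and definitive endoderm genes. Without the filter the anterior forebrain median was 0.24. With a pseudocount of 0.1 the medians were -3.56 for extraembryonic endoderm genes, 2.47 for early neuron genes and -1.74 for retinoic acid genes. Of the medians that changed sign, the pigment list was 0.01 and the hedgehog list -0.12 without the filter, and the Wnt ligand and receptor list -0.03 with a mean of at least 5 FPKM. The eye field median was -1.37 without library 1 of the fusion. The cause was not tested.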
